A study of Mus musculus with 32 samples.

Results

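MYC target genes of ribosome biogenesis, a set of 45 chosen by name, were followed through 4 raw count tables of mouse glia. All 45 were present in each table, of 55291 genes in the tables of sorted astrocytes and O4 cells, 53700 in the microglia table and 17572 in the culture table. By role, the list held 4 genes of RNA polymerase I transcription, 3 of the box C/D and 4 of the box H/ACA ribonucleoprotein, 3 nucleolar phosphoproteins, 6 factors of the small and 13 of the large ribosomal subunit, 1 exosome subunit, 5 genes of nucleotide, polyamine and folate supply, and 6 mitochondrial or translation factors.

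Every library came from mice, or from cells of mice, with the genotype TDP-43_Q331K, which carries a mutant TDP-43, an RNA-binding protein, and models amyotrophic lateral sclerosis. No mice without the transgene were analysed here, and no source used here names the promoter of the transgene. Sorting for ACSA2 gave astrocytes of cortices and spinal cords, taken at 3 months (4 libraries), 6 months (5) and 10 months (2). Sorting for O4 gave cells labelled oligodendrocytes of the same 2 regions, taken at 3 and 6 months (4 libraries each), and Cd11b-sorted microglia came from cortices alone at 3 months (3) and 10 months (4). Primary astrocytes cultured for 14 days received vehicle or 40 µM Omomyc, a MYC-derived miniprotein that blocks MYC binding to DNA, for 48 hours (3 libraries each). The labels do not say whether the libraries of a group came from separate animals or cultures, so the p-values measure the spread between these libraries only.

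MYC is a transcription factor that, paired with MAX, binds E-box sequences near the start of many growth genes. Making ribosomes is among the processes it is best known for: RNA polymerase I transcribes the ribosomal RNA precursor, small nucleolar ribonucleoproteins modify it, and many assembly factors cut and fold it into the large and small subunits. Every cell needs these genes at a basal level, and dividing or growing cells use them more than resting ones.

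Since the genes were listed as MYC targets, the RefSeq promoter table (build GRCm38.p6, 250 bases before to 50 bases after each start) was searched for the E-box CACGTG, which reads the same on both strands. A promoter was matched for 39 members, and 10 of them (25.6%) held the motif, against 2187 of 27025 genes in the whole table (8.09%). The holders were Imp4, Hspd1, Nop2, Exosc5, Grwd1, Utp20, Pes1, Mybbp1a, Nme1 and Wdr43. Npm1, Rrs1, Rrp12, Fbl, Srm and Bop1 were not matched. The stretches of the 6 holders with the smallest p under Omomyc are shown because that is the comparison in which MYC was targeted. These unadjusted p ran from 0.125 to 0.439 in the edgeR test, so the order does not mark a response to Omomyc. The E-box stands in capitals, with up to 12 bases on each side within the window:
Nme1, chr11:93968037-93968066, minus strand: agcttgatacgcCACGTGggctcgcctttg
Nme1, second start, chr11:93968273-93968302, minus strand: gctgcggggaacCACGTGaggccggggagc
Utp20, chr10:88826765-88826789, minus strand: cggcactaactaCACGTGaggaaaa
Pes1, chr11:3963965-3963994, plus strand: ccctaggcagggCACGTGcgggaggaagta
Grwd1, chr7:45830740-45830767, minus strand: gggccggagtcgCACGTGtgaaaccgga
Mybbp1a, chr11:72441355-72441376, plus strand: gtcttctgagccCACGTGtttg
Exosc5, chr7:25659097-25659126, plus strand: taaacgctgagcCACGTGctagggccaact
The first base of the motif lay between 44 bases before the start, in Exosc5, and 41 bases after it, in Mybbp1a. Such a match describes these letters only and does not show binding.

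Libraries held 6151583 to 20763190 counts in sorted astrocytes, 9752907 to 18598533 in O4 cells, 4145129 to 5612071 in microglia and 30117025 to 37470972 in culture. The 45 genes together took 0.142% to 0.180% of the counts in sorted astrocytes, 0.162% to 0.183% in O4 cells, 0.165% to 0.197% in microglia and 0.277% to 0.303% in culture. The most counted gene of the microglia table alone took 17.9% to 27.0% of each library. The most counted gene of the other tables took at most 4.82% in astrocytes, 9.51% in O4 cells and 0.933% in culture. Its share moved with age in the sorts. In astrocytes it was 2.21% to 4.82% at 3 months, 0.840% to 3.37% at 6 months and 0.243% to 0.290% at 10 months. In O4 cells it was 2.01% to 4.05% at 3 months and 4.83% to 9.51% at 6 months. Library kits differed too, so the shares do not compare cell types across tables. The sorts carried their defining markers, but the astrocyte libraries also carried oligodendrocyte RNA: 12 oligodendrocyte markers summed to 17676 to 40789 CPM (counts scaled to a common library total) there, against 87066 to 173325 in O4 libraries. In the other direction, 12 astrocyte markers summed to 1674 to 4390 CPM in O4 cells and 28181 to 42829 in sorted astrocytes. In bulk RNA of this kind, fewer cells of a type and less RNA per cell cannot be told apart. Unless stated otherwise, levels are CPM on the scale of the trimmed mean of M-values (TMM), an edgeR scaling, differences are log2 fold changes with their standard error (SE), and "called" means an adjusted p (Benjamini-Hochberg, over all genes tested) under 0.05 in the quasi-likelihood test of edgeR.

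Length-corrected levels, taken as the authors' TPM, which divide counts by transcript length and scale each library to 1 total, put the same few members at the top in each sort. In astrocytes at 3 months the mean TPM was 128 ± 30.7 (SD, n = 4) for Hspd1, the mitochondrial chaperonin, 117 ± 11.5 for Npm1, nucleophosmin, and 89.3 ± 1.99 for Pa2g4, a nucleolar growth regulator. Nop58, a core box C/D protein, at 7.74 ± 0.751 TPM, and Exosc5, a subunit of the RNA exosome, at 7.47 ± 1.05 TPM were the lowest. In O4 cells at 3 months Npm1 ranked first at 137 ± 12.2 TPM, and Nop58 was again near the bottom at 6.44 ± 0.475 TPM. In astrocytes Hspd1 and Npm1 did not differ beyond their SD, so their order is not resolved.

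In O4 cells between 3 and 6 months, Ncl and Npm1, encoding the abundant nucleolar proteins nucleolin and nucleophosmin, rose together, while the polyamine enzyme Srm and 3 assembly factors fell. Of the 45 members, 3 rose and 5 fell, where 24.4% of the 14050 genes tested were called, with 14.9% higher and 9.46% lower. The median log2 fold change over the members was -0.05, against 0.02 over all genes. The remaining 37 members were not called.

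Ncl (nucleolin, which binds pre-ribosomal RNA; chr1:86344719-86359400 in GRCm38) stood at 271, 298, 283 and 345 CPM in the 3-month libraries and at 453, 626, 434 and 582 CPM in the 6-month libraries. The groups did not overlap, and all 6-month libraries lay above the highest 3-month one; the log2 fold change was 0.81 ± 0.13 (adjusted p = 0.00213 in edgeR). Npm1 (nucleophosmin, a histone and ribosome chaperone; chr11:33152287-33163206) stood at 87.6, 90.8, 92.7 and 108 CPM at 3 months and at 132, 189, 128 and 169 CPM at 6 months. These groups did not overlap either, with a log2 fold change of 0.71 ± 0.13 (adjusted p = 0.00417). On the authors' TPM scale Ncl went from 114 ± 11.2 to 171 ± 20.0 and Npm1 from 137 ± 12.2 to 192 ± 24.7 (SD, n = 4 each). Nolc1, the third nucleolar phosphoprotein and a chaperone of small nucleolar ribonucleoproteins, stood at 55.7 ± 3.86 and 57.8 ± 7.30 CPM, with overlapping groups and no call (log2 fold change 0.06 ± 0.10).

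Both genes were highest in the same 6-month libraries, replicates 2 and 4. Those were also the libraries with the most oligodendrocyte marker RNA, 173325 and 165365 CPM, against 113080 and 125031 in replicates 1 and 3. The calls of both genes held with each of the 8 libraries left out in turn. Over the groups, the summed oligodendrocyte markers were 87066 to 117138 CPM at 3 months and 113080 to 173325 at 6 months; of the 12 markers, Mbp and Mobp rose and 7 fell. Other marker sums moved as well: 10 endothelial markers summed to 71.5 to 90.6 CPM at 3 months and 272 to 745 at 6 months, and all 10 rose. The 8 mural cell markers summed to 34.6 to 64.2 and 152 to 344 CPM, and all 7 that were tested rose. The 10 neuron markers summed to 148 to 165 CPM at 3 months and 153 to 254 at 6 months, with 5 of 9 tested called higher. Markers of oligodendrocyte precursors, 10 in all, summed to 3391 to 4306 CPM at 3 months and 4241 to 6491 at 6 months (1 higher, 3 lower), and the 12 astrocyte markers to 1674 to 2381 and 2190 to 4390 CPM (1 higher). The 7 choroid plexus markers varied widely in each group, from 37.2 to 908 and from 297 to 3868 CPM, with none called. The 11 cell division genes summed to 8.48 to 24.0 CPM at 3 months and 3.15 to 6.64 at 6 months, with 3 of the 4 tested called lower. The part of these cells in the members' changes was not tested.

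Srm (spermidine synthase, of the polyamine pathway; chr4:148591503-148594993) gave the smallest p among the members. It stood at 40.5, 38.2, 41.8 and 41.2 CPM at 3 months and at 29.1, 26.7, 22.6 and 23.9 CPM at 6 months, so every 6-month library was below every 3-month one. The log2 fold change was -0.66 ± 0.09 (adjusted p = 8.83e-04 in edgeR). Slc19a1, the reduced folate carrier, went the other way, from 4.44, 5.78, 5.05 and 5.78 CPM to 9.20, 8.70, 8.39 and 6.86 CPM, again with no overlap (log2 fold change 0.66 ± 0.15, adjusted p = 0.0109).

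Of the assembly factors, Rrp12, which acts in export and maturation of the small subunit, fell from 17.9, 16.9, 16.7 and 20.1 CPM to 12.3, 13.2, 12.3 and 11.9 CPM without overlap. Its log2 fold change was -0.52 ± 0.10 (adjusted p = 0.00390). Bop1, of the complex that it forms with Pes1 for processing of large subunit RNA, fell from 31.7, 34.7, 31.4 and 32.9 to 28.7, 24.9, 23.3 and 25.6 CPM (log2 fold change -0.35 ± 0.08, adjusted p = 0.0140). Its partner Pes1 was not called, at -0.05 ± 0.08. Rrs1, a factor of the large subunit particle that carries 5S RNA, stood at 13.4, 16.1, 13.1 and 13.8 CPM at 3 months and 11.9, 10.8, 9.88 and 11 CPM at 6 months (log2 fold change -0.37 ± 0.11, adjusted p = 0.0319). Aimp2, a scaffold of the aminoacyl-tRNA synthetase complex, stood at 11.2, 10.6, 11.8 and 8.56 CPM in the younger and 8.15, 7.55, 6.83 and 8.71 CPM in the older libraries, with replicate 4 of the 3-month group inside the 6-month range. Its log2 fold change was -0.44 ± 0.14 (adjusted p = 0.0406). The calls of Rrs1 and Aimp2 were the least firm: they were made under 9 of 16 and 10 of 16 alternatives, and the other 6 under all 16.

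No gene of RNA polymerase I, of the box C/D or box H/ACA particles or of the exosome was called in O4 cells. Their log2 fold changes ran from -0.23 for Exosc5 to 0.28 for Gar1, a box H/ACA protein. In all, 11 members had groups that did not overlap, beside 26.5% of all genes.

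**Figure D1:**
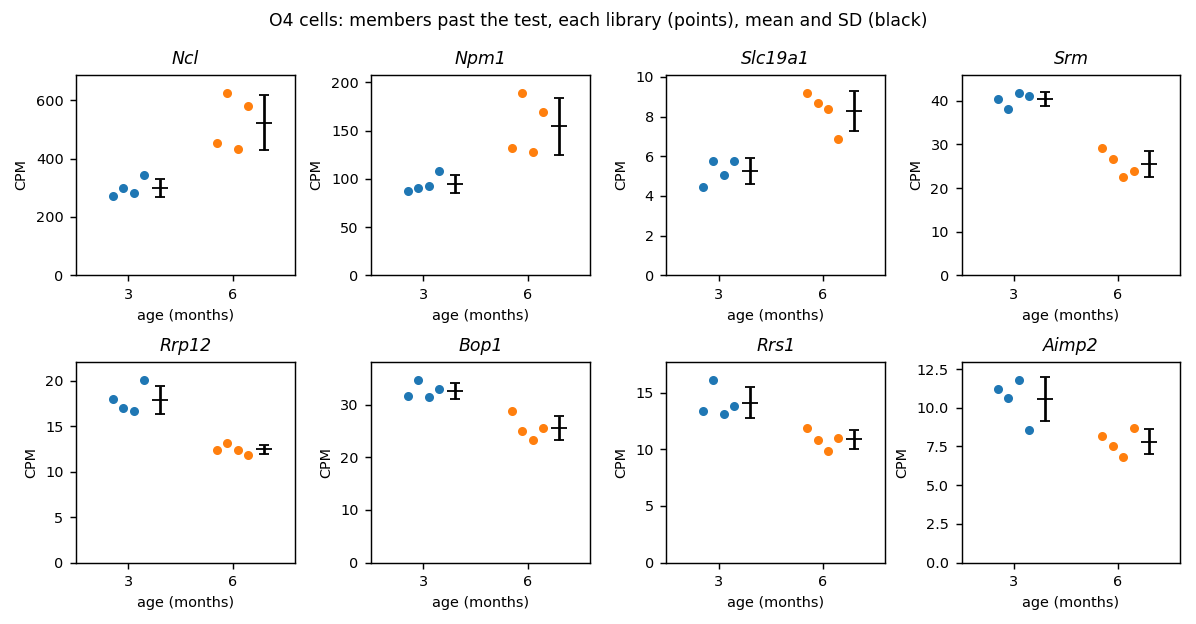
CPM (y axis, from 0) in O4 cells at 3 and 6 months (x axis) for the 8 members called between the ages; points are libraries and the black bar is the mean with SD (n = 4 per age). Ncl, Npm1 and Slc19a1 lie higher at 6 months, the others lower, and Aimp2 is the one whose groups overlap.

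Beside the members stand the other genes of the pathway. Of 121 other ribosome biogenesis genes tested in O4 cells, 2 rose and 9 fell, and of 45 other MYC targets tested, 2 rose and 10 fell. Among the other assembly genes Pop4, of ribonuclease P, fell (-0.37 ± 0.08, adjusted p = 0.00641), as did Tbl3, a small subunit factor (-0.36 ± 0.09, 0.0139), while Nsa2 (0.43 ± 0.12, 0.0293) and Nop53 (0.26 ± 0.08, 0.0349), both of the large subunit, rose. Of the other targets, the cyclin Ccnd2 (1.26 ± 0.29, 0.0122) and the glycolytic enzyme Ldha (1.14 ± 0.30, 0.0269) rose and the replication helicase gene Mcm2 fell (-0.61 ± 0.14, 0.0123).

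Myc itself had a mean of 5.70 ± 0.855 CPM in the younger and 5.74 ± 1.70 CPM in the older O4 cells (SD, n = 4 each; log2 fold change 0.01 ± 0.23). Its relative Mycn fell from 4.16, 5.99, 5.71 and 3.31 to 1.70, 1.27, 2.90 and 1.96 CPM (-1.31 ± 0.29, adjusted p = 0.00945). Max, the partner of all MYC proteins (0.41 ± 0.09, 0.00780), the repressor partner Mnt (0.36 ± 0.11, 0.0360) and Mlxip, of the glucose-sensing branch (0.54 ± 0.09, 0.00233), rose. The other 9 of the 13 MYC network genes tested, Mycl among them, were not called.

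In sorted astrocytes few members changed with age, and the clearest change was a fall of Polr1a, the largest subunit of RNA polymerase I, with a rise of Odc1, the first enzyme of polyamine synthesis. Between 3 and 6 months 2 of the 45 rose and 3 fell, where 14.6% of 16189 genes were called (6.28% higher, 8.29% lower). Between 3 and 10 months 4 rose and 2 fell, where 22.7% were called (11.5% higher, 11.2% lower). The median log2 fold change of the members was -0.00 in each comparison, and over all genes 0.00 and 0.02. Both comparisons share the 3-month libraries, so their calls are not independent.

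Polr1a (chr6:71909053-71984935) stood at 48.7, 51.1, 52.3 and 60.2 CPM at 3 months, at 40.5, 34.0, 39.7, 39.6 and 37.5 CPM at 6 months and at 39.2 and 41.8 CPM at 10 months. Every older library was below every 3-month one, and the older groups overlapped each other. The log2 fold change was -0.47 ± 0.09 at 6 months (adjusted p = 0.00306 in edgeR) and -0.39 ± 0.12 at 10 months (adjusted p = 0.0230). The call at 6 months was made under all 18 alternatives. The call at 10 months was lost under some alternatives, scaling by library totals alone among them. Polr1a was also higher in O4 cells than in astrocytes, and the summed oligodendrocyte markers of the astrocyte libraries moved with it: 25906 to 40789 CPM at 3 months, 17676 to 26948 at 6 months and 17953 to 27485 at 10 months, with 7 of the 12 markers called lower at each older age. Its part in the fall was not tested. The other polymerase I genes, Polr1b, the transcription factor Ubtf and the coregulator Mybbp1a, were not called, with log2 fold changes of -0.10 ± 0.12, -0.11 ± 0.10 and -0.02 ± 0.09 at 6 months.

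Odc1 (ornithine decarboxylase; chr12:17544794-17551505) stood at 44.8, 58.9, 63.3 and 53.9 CPM at 3 months, at 66.1, 64.9, 76.4, 72.1 and 78.6 CPM at 6 months and at 84.0 and 72.6 CPM at 10 months. All 7 older libraries were above the highest 3-month library. The log2 fold change was 0.38 ± 0.10 at 6 months (adjusted p = 0.0200) and 0.51 ± 0.13 at 10 months (adjusted p = 0.0105). Slc19a1 rose at 6 months and stood at 11.9, 13, 11.5 and 11.1, then 14.2, 16.8, 18, 17.6 and 13.8, then 11.1 and 13.3 CPM at 3, 6 and 10 months. The change at 6 months was 0.45 ± 0.13 (adjusted p = 0.0259), and that between 6 and 10 months was -0.40 ± 0.16 (adjusted p = 0.215), short of the threshold. Odc1 and Slc19a1 were both lower in O4 cells than in astrocytes, by log2 fold changes of 1.36 and 0.73. The summed oligodendrocyte markers of the astrocyte libraries were lower at the older ages, as given above. The part of this RNA in the rises of both genes was not tested.

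Hspd1 and Imp4 were called lower at 6 months although their groups overlapped. Hspd1 stood at 93.0, 78.2, 97.7 and 136 CPM at 3 months, at 87.9, 67.3, 77.7, 74.2 and 73.9 at 6 months and at 106 and 106 at 10 months. Replicate 4 of the 3-month group was the highest library. The log2 fold change at 6 months was -0.42 ± 0.13 (adjusted p = 0.0354), and -0.21 without that library, with no call. Its co-chaperonin Hspe1 showed -0.37 ± 0.16 at 6 months (adjusted p = 0.127) and, like Hspd1, higher values at 10 than at 6 months, 31.4, 19.3, 29.0, 25.7 and 23.9 CPM and then 35.6 and 37.0 CPM. The 2 gene models lie head to head on chromosome 1 and overlap by 112 bases, and named pseudogenes exist for both, 5 of Hspd1 and 6 of Hspe1, so part of their counts is uncertain. Imp4, a U3 small nucleolar ribonucleoprotein component, stood at 45, 34.5, 47.2 and 45.8 CPM at 3 months and 33.8, 38.4, 37.3, 31.1 and 32.5 CPM at 6 months (-0.32 ± 0.10, adjusted p = 0.0453), with the lowest 3-month library, replicate 2, inside the 6-month range. These 2 calls at 6 months were the least firm. Of 18 alternatives, 9 kept the call of Hspd1 and 7 that of Imp4, against 16 for Odc1 and 14 for Slc19a1.

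At 10 months, 3 members of different assembly steps rose over 3 months. Nop56, a core box C/D protein, stood at 38.6, 40.2, 41.1 and 42.2 CPM at 3 months and 51.0 and 56.2 CPM at 10 months (0.40 ± 0.12, adjusted p = 0.0208). Ppan, a large subunit factor, stood at 11.4, 10.6, 9.89 and 12.3 CPM in the younger and 16.2 and 20.8 CPM in the older libraries (0.74 ± 0.24, adjusted p = 0.0349). Nhp2, a core box H/ACA protein, stood at 7.86, 7.99, 7.45 and 6.89 CPM in the younger and 10.6 and 12 CPM in the older libraries (0.59 ± 0.20, adjusted p = 0.0427). None of the 3 overlapped between those ages. For Nop56 the 6-month libraries, from 36.9 to 48.6 CPM, were all below the 10-month ones, while for Ppan (7.91 to 19.3 CPM) and Nhp2 (7.07 to 12.4) they overlapped both other ages. Replicate 5 was the lowest 6-month library for all 3.

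Utp20, a scaffold of the small subunit processome, fell from 29.4, 37.1, 34.0 and 35.8 CPM at 3 months to 25.7 and 26.6 CPM at 10 months (-0.38 ± 0.13, adjusted p = 0.0400). With 2 libraries at 10 months, 19 members had groups that did not overlap between 3 and 10 months, beside 45.4% of all genes. Between 3 and 6 months there were 3 such members, Polr1a, Odc1 and Slc19a1, beside 13.1% of all genes.

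The 10-month calls rested on 2 libraries. With either left out, 1 library stands for that age, so no count of calls is given for those fits. Over the 15 alternatives, these 1-library fits included, the log2 fold change of Odc1 at 10 over 3 months ran from 0.40 to 0.68. That range describes size and sign only, and does not show that the call held. Without 3-month replicate 1, 3 or 4, 3 members were called at 10 months. The 6-month count was 5 and went to 1 without 6-month replicate 3, to 2 without 6-month replicate 4 or without 3-month replicate 1, 3 or 4, and to 8 without 6-month replicate 5. Leaving a library out changes the power for every gene. The shares of all genes called in these fits are not given here, so the counts do not describe the members alone. Markers of other cells also moved between 3 and 10 months. The 7 choroid plexus markers summed to 228 to 1509 CPM at 3 months and 16.5 to 54.3 at 10 months (5 called lower), the 10 endothelial markers to 208 to 387 and 124 to 208 CPM (4 lower), and the 8 mural markers to 359 to 445 and 289 to 333 CPM (2 of 7 tested lower). The 13 microglia markers were higher at 10 months, with sums of 46.1 to 52.5 CPM at 3 months and 59.3 to 66.2 at 10 months (3 of 8 tested called higher), as were the 10 markers of oligodendrocyte precursors, with 2103 to 2357 and 2470 to 2702 CPM (2 called higher). Their part in the members' changes was not tested.

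Scaling moved the counts too. Without the TMM factor, by library totals alone, the median of all genes moved from 0.00 to 0.14 at 6 months and from 0.02 to 0.19 at 10 months, and the members' calls became 6 higher and 1 lower at 6 months, where 14.3% and 3.92% of all genes were called, and 13 higher and 0 lower at 10 months, where 21.3% and 5.36% were. Odc1, Slc19a1 and Polr1a kept their 6-month calls under that scaling, and Odc1, Nop56, Ppan and Nhp2 their 10-month calls. Hspd1 and Imp4 lost their calls at 6 months, and Polr1a and Utp20 theirs at 10 months.

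**Figure D2:**
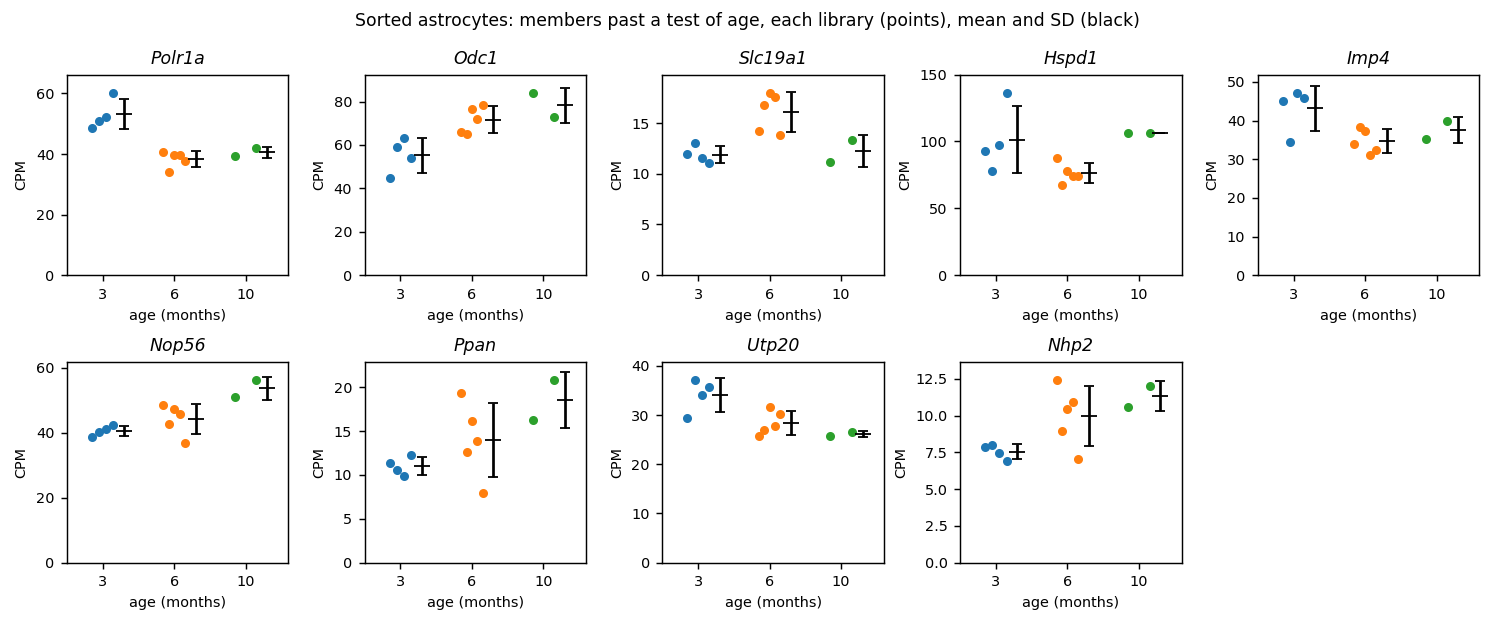
CPM (y axis, from 0) in sorted astrocytes at 3, 6 and 10 months (x axis) for the 9 members called at 6 or 10 months over 3 months; points are libraries (4, 5 and 2) and the black bar is the mean with SD. Polr1a is lower and Odc1 higher in every older library than in any 3-month library, while Ppan and Nhp2 spread widely at 6 months.

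Between 6 and 10 months no member was called, where 0.908% of genes were (0.574% higher, 0.334% lower). There were 7 members with an unadjusted p under 0.05, the smallest adjusted p being 0.132 for Hspd1 (0.48 ± 0.16), followed by Nip7, a large subunit factor (-0.47 ± 0.19), Slc19a1 and Hspe1 (0.48 ± 0.19). DESeq2 and limma-voom also called 0 members, and edgeR without the filter on low counts called Hspd1 alone. Nip7 stood at 13.5, 13.3, 10.0, 9.34 and 11.4 CPM at 6 months and at 8.34 and 8.05 CPM at 10 months, below every younger library. In all, 9 members did not overlap between these ages, beside 23.2% of all genes.

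Of the other ribosome biogenesis genes, 2 rose and 3 fell of 121 at 6 months, and 8 rose and 8 fell at 10 months. Nvl (-0.45 ± 0.11, adjusted p = 0.00917) and Nol8 (-0.39 ± 0.10, 0.0198), both of the large subunit, fell at 6 months, and Taf1a, a subunit of the polymerase I selectivity factor, rose (0.37 ± 0.12, 0.0451). At 10 months Las1l, which cuts the large subunit precursor, rose (0.66 ± 0.12, 0.00147), as did Taf1a (0.59 ± 0.15, 0.00946), while Gnl3l (-0.53 ± 0.11, 0.00301) and Heatr1, of the small subunit processome (-0.47 ± 0.12, 0.00951), fell. Of 46 other MYC targets, 0 rose and 3 fell at 6 months, led by Mthfd2 (-0.63 ± 0.19, 0.0355) and Pcna (-0.36 ± 0.11, 0.0420). At 10 months 2 rose and 4 fell, with Hnrnpa1 (0.58 ± 0.13, 0.00412), an RNA-binding protein, among the former and Tfrc, the transferrin receptor (-0.51 ± 0.13, 0.00895), among the latter. None of these genes was called between 6 and 10 months.

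Myc was at 6.36 ± 1.80 CPM (SD, n = 4) at 3 months, 5.75 ± 1.10 (n = 5) at 6 months and 8.55 ± 1.51 (n = 2) at 10 months, with log2 fold changes of -0.09 ± 0.21 and 0.46 ± 0.26 over 3 months and no call. Mnt, a MAX-binding repressor, rose at 6 months (0.30 ± 0.10, adjusted p = 0.0499) and at 10 months (0.44 ± 0.12, 0.0174). At 10 months Mlxipl, the carbohydrate-responsive factor, also rose (0.98 ± 0.22, 0.00431) and Mga, a large MAX-binding protein, fell (-0.50 ± 0.12, 0.00677). The other MYC network genes tested, of 13, were not called in astrocytes at any age.

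The 3-to-6-month change itself differed between the 2 sorts for 6 members, tested as an interaction in 1 fit of 17 libraries. Of the 45, 4 had a more positive and 2 a more negative age change in astrocytes than in O4 cells, where 16.4% of 16363 genes were called (6.44% and 9.97%). The median difference over the members was 0.14 log2 units and over all genes 0.02. Ncl (-0.89 ± 0.17, adjusted p = 0.00118) and Npm1 (-0.59 ± 0.16, adjusted p = 0.0164) were the members with the more negative change: they rose in O4 cells, while in astrocytes their log2 fold changes were -0.16 ± 0.10 and 0.03 ± 0.09, with no call. All 10 endothelial and all 8 mural markers also had a more negative change in astrocytes than in O4 cells, and their part was not tested.

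Srm had the largest difference the other way, 0.91 ± 0.15 (adjusted p = 3.50e-04). Its astrocyte levels were 34.8, 30.5, 29.4 and 35.1 CPM at 3 months and 39.6, 40.9, 41.3, 31.5 and 30.1 CPM at 6 months, which overlap, beside its fall in O4 cells. Rrs1 differed by 0.84 ± 0.20 (adjusted p = 0.00653), with astrocyte levels of 17.6, 18.3, 20.2 and 18 CPM in the younger and 30.9, 23.2, 27.1, 22.8 and 16.4 CPM in the older libraries. C1qbp, a mitochondrial matrix protein, differed by 0.45 ± 0.13 (adjusted p = 0.0201) and Aimp2 by 0.58 ± 0.19 (adjusted p = 0.0387). Srm, Rrs1, Ncl and Npm1 kept the call under all 25 alternatives; C1qbp lost it under 5 and Aimp2 under 15. By library totals alone, 9 members were called more positive and 2 more negative, the 6 above among them, where 15.5% and 7.33% of all genes were.

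Among the other lists, 5 of 121 other ribosome biogenesis genes had a more positive change in astrocytes and 0 a more negative one, Tbl3 (0.63 ± 0.13, adjusted p = 0.00237) and Utp23 (0.74 ± 0.23, 0.0298), both of the small subunit, with the smallest p. Of 46 other MYC targets, 3 and 2 were called, and of the MYC network Max alone (-0.44 ± 0.11, 0.00873).

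Between the sorts at 3 and 6 months, the firmest differences were higher Odc1, Slc19a1 and Cad in astrocytes, genes of polyamine, folate and pyrimidine supply, and higher Ncl, Pes1, Polr1a and Imp4 in O4 cells. With TMM scaling 6 of the 45 members were higher and 21 lower in astrocytes, where 74.6% of 16363 genes differed (38.7% higher, 35.9% lower), and the members' median was -0.17 against 0.03 over all genes. The split turned with the scaling: by library totals alone, which moved the median of all genes to 0.33 and that of the members to 0.13, 19 members were higher and 8 lower in astrocytes, where 52.7% and 22.1% of all genes were. All 6 genes called higher and 8 of the 21 called lower with TMM were called the same way under both scalings, and none was called in opposite directions. The 8 were Ncl, Npm1, Polr1a, Imp4, Pes1, Bop1, Fbl and Gar1.

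Odc1 had a lowest, median and highest level of 39.7, 58.3 and 71.8 CPM over 9 astrocyte libraries, against 19.0, 20.9 and 27.5 CPM over 8 O4 libraries, on their joint scale. These ranges did not overlap, and the log2 fold change, the mean of those at both ages, was 1.36 ± 0.09 (adjusted p = 1.14e-11 in edgeR). Slc19a1 had 9.62, 12.6 and 16.1 CPM in astrocytes (lowest, median, highest) and 5.05, 7.12 and 10.1 CPM in O4 cells, which overlap slightly (0.73 ± 0.10, adjusted p = 6.15e-07). Cad, which starts pyrimidine synthesis, had 33.6, 36.6 and 45.5 against 23.1, 25.5 and 31.6 CPM without overlap (0.53 ± 0.07, adjusted p = 8.82e-07). Srm, which acts after Odc1, was lower in astrocytes as a mean over both ages (-0.23 ± 0.07, adjusted p = 0.00948), a call that was lost by library totals alone. With the 3-month libraries alone its log2 fold change was -0.65 ± 0.08 (adjusted p = 7.02e-06 in edgeR), and with the 6-month libraries alone it was 0.22 ± 0.13 (adjusted p = 0.129), not called and of the opposite sign.

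Ncl and Npm1 were lower in astrocytes under both scalings. Ncl had 160.1, 188 and 223 CPM in astrocytes and 308, 432 and 687 CPM in O4 cells (lowest, median, highest), a log2 fold change of -1.22 ± 0.08 (adjusted p = 3.10e-11). Npm1 had 74.3, 82.9 and 99.0 against 99.7, 131 and 208 CPM (-0.69 ± 0.08, adjusted p = 1.34e-07), and neither gene overlapped. The difference was smaller at 3 months: with the 3-month libraries alone it was -0.75 for Ncl and -0.36 for Npm1, and with the 6-month libraries alone -1.67 and -0.99. Polr1a had 30.6, 36.0 and 52.3 CPM in astrocytes and 54.0, 71.4 and 78.7 CPM in O4 cells, without overlap (-0.78 ± 0.06, adjusted p = 6.15e-10).

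Among the assembly factors, Pes1 had 24.4, 28.8 and 34.8 against 46.1, 51.4 and 57.6 CPM (-0.82 ± 0.07, adjusted p = 5.65e-10) and Imp4 28.2, 33.3 and 41.8 against 49.8, 59.6 and 76.4 CPM (-0.83 ± 0.08, adjusted p = 6.93e-09), both without overlap. Bop1, the partner of Pes1, had 15.9, 22.7 and 25.7 against 25.4, 33.7 and 40.4 CPM, and its ranges overlapped slightly (-0.52 ± 0.08, adjusted p = 9.26e-06). Fbl, fibrillarin, the methyltransferase of box C/D particles, had 10.2, 12.9 and 13.4 against 15.7, 20.1 and 25.4 CPM (-0.72 ± 0.10, adjusted p = 1.27e-06). Its box C/D partners Nop56 (0.03 ± 0.07) and Nop58 (0.17 ± 0.08) were not called. Pa2g4 had 59.7, 66.0 and 68.8 against 78.4, 86.2 and 98.2 CPM (-0.42 ± 0.06, adjusted p = 1.05e-06), a call that was lost by library totals alone.

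Of the large subunit factors, 3 were higher in astrocytes under both scalings. Rrs1 had 15, 17.9 and 27.5 CPM in astrocytes and 10.8, 14.0 and 18.8 CPM in O4 cells (0.44 ± 0.10, adjusted p = 4.92e-04), overlapping, and with the 3-month libraries alone the difference was 0.05 and not called. Nip7 had 8.46, 10.1 and 12 against 7.13, 8.53 and 9.37 CPM (0.23 ± 0.10, adjusted p = 0.0357) and Ddx18, an RNA helicase, 13.1, 16.8 and 19.0 against 11.7, 15.2 and 17.4 CPM (0.20 ± 0.08, adjusted p = 0.0327), both overlapping. Their calls held under 14 and 16 of the 27 alternatives, and with the 3-month libraries alone the differences were 0.11 ± 0.13 and 0.10 ± 0.10 (adjusted p = 0.440 and 0.411 in edgeR). In all, 11 members did not overlap between the sorts, beside 39.1% of all genes. The astrocyte libraries contained oligodendrocyte RNA, as given above, and its part in these differences was not tested.

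**Figure D3:**
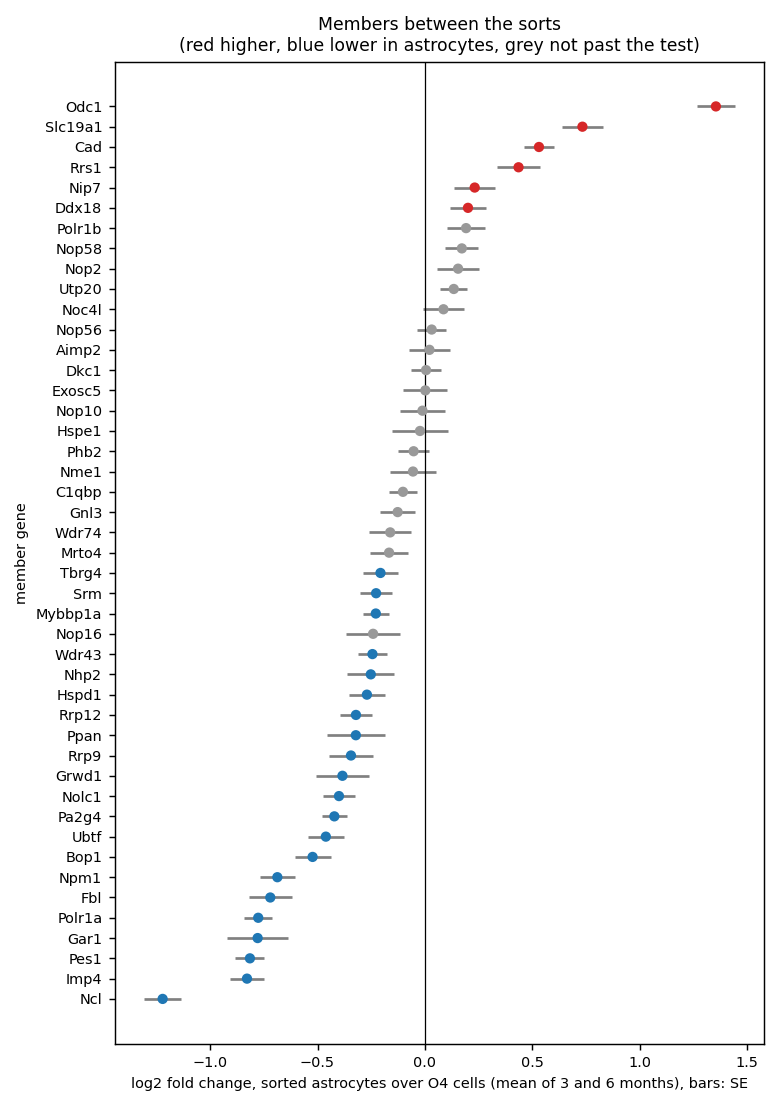
Log2 fold change of sorted astrocytes over O4 cells with TMM scaling (x axis, mean of the differences at 3 and 6 months, bars are SE, 9 and 8 libraries) for each of the 45 members (y axis, sorted by value). Odc1 stands apart on the high side and Ncl on the low side; the genes called lower from Ubtf upwards were not called so by library totals.

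The other ribosome biogenesis genes split 20 higher and 50 lower of 121, and the other MYC targets 8 and 22 of 46, on the TMM scale. Rrp8 (0.84 ± 0.08, adjusted p = 5.32e-09), a nucleolar methyltransferase, and Taf1a (0.85 ± 0.09, 1.45e-08) led the first list on the high side, and Nop53 (-1.14 ± 0.08, 3.03e-11) and Pop4 (-0.97 ± 0.07, 1.43e-10) on the low side. Of the other targets, Ccnd2 (3.40 ± 0.15) and the mitochondrial channel gene Vdac1 (0.86 ± 0.06) led the high side and Mthfd2, of mitochondrial folate metabolism (-1.46 ± 0.12), and Pcna, the replication clamp (-0.85 ± 0.08), the low side. Of the MYC family, Mycl was lower in astrocytes (-3.13 ± 0.20, adjusted p = 2.03e-11), and Myc (-0.24 ± 0.16) and Mycn (-0.23 ± 0.19) were not called. Max (-0.35 ± 0.05), Mxd1 (-0.38 ± 0.08), Mnt (-0.46 ± 0.08), Mlxip (-0.20 ± 0.08) and Zbtb17 (-0.44 ± 0.11) were also lower on this scale, and Mlxipl was higher (2.77 ± 0.21, 1.31e-10).

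**Figure D4:**
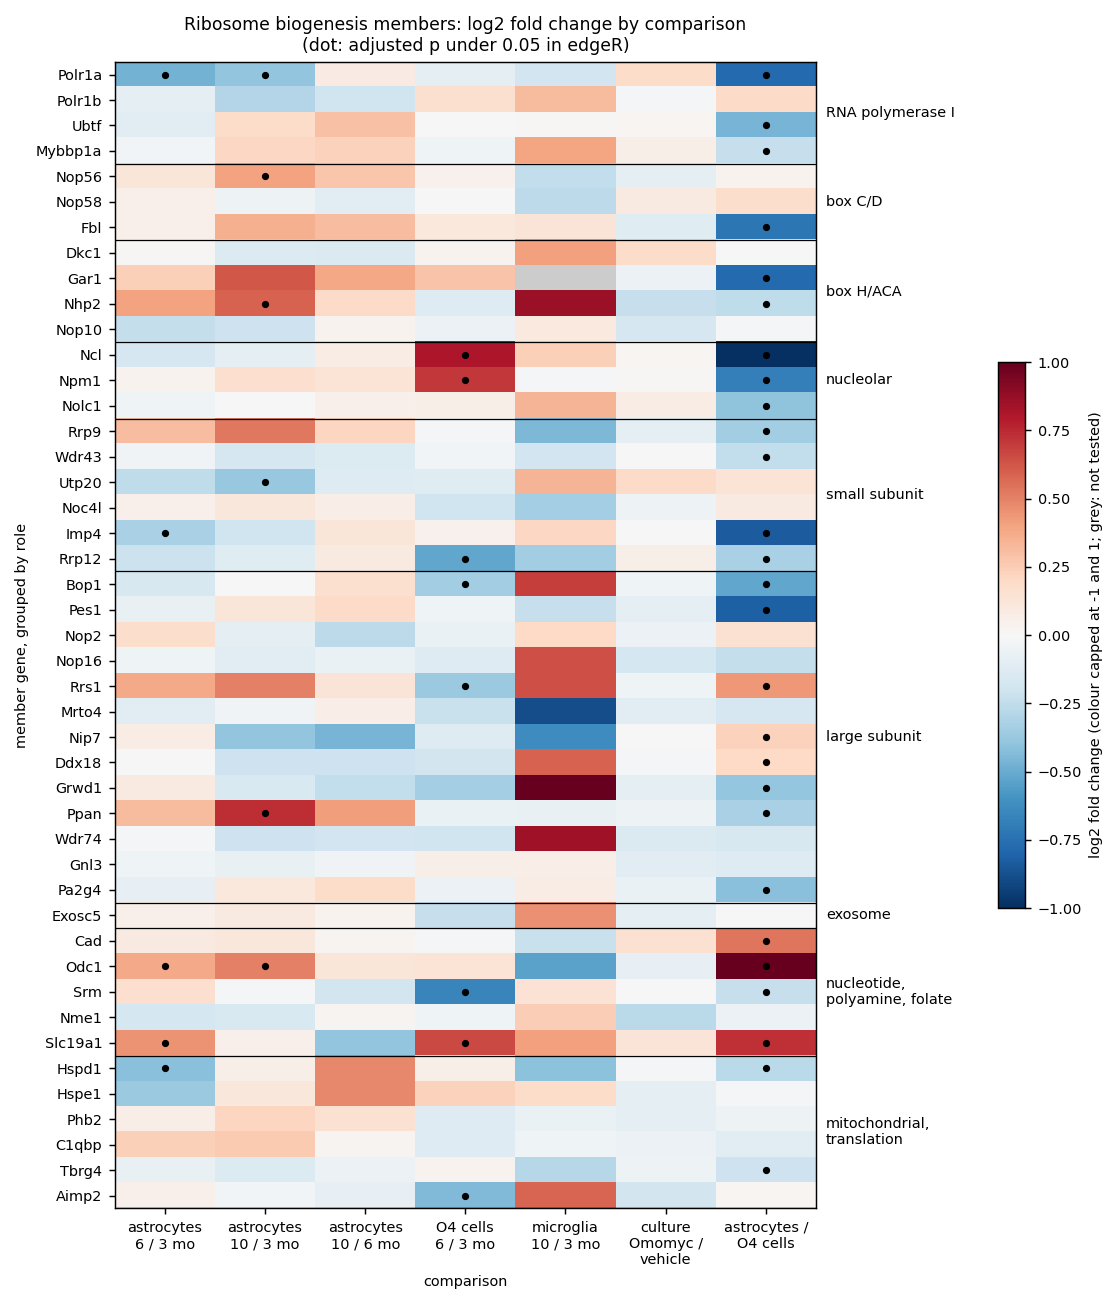
Log2 fold changes (colour, capped at -1 and 1) of the 45 members (y axis, grouped by role) in 7 comparisons (x axis); a dot marks an adjusted p under 0.05 in edgeR and grey a gene below the filter. Dots are few in the age columns, absent in microglia and under Omomyc, and mostly blue between the sorts, where the balance turned with the scaling; strong colours in microglia carry no dot.

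In microglia, sequenced from the 3′ end of the RNA, no member was called between 3 and 10 months, where 3.21% of 12320 genes were (1.94% higher, 1.27% lower). Of the 45 members 44 were tested; Gar1, at 0.817 ± 0.231 and 1.67 ± 0.838 CPM, fell under the filter. An unadjusted p under 0.05 was found for 3 members. DESeq2 called 1 member, Mrto4, and limma-voom 0. The members' median log2 fold change was 0.12, against 0.00 over all genes, with SEs from 0.12 to 1.06.

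Mrto4, a factor of large subunit assembly, had the smallest p: it stood at 26.6, 25.9 and 28.6 CPM at 3 months and 15, 13.8, 12.8 and 16.7 CPM at 10 months. All 10-month libraries were below all 3-month libraries, with a log2 fold change of -0.89 ± 0.25 (adjusted p = 0.0678 in edgeR, 0.0226 in DESeq2). Dkc1, the box H/ACA pseudouridine synthase, stood at 85.3, 76.9 and 112 CPM in the younger and 133, 94.2, 123 and 136 CPM in the older libraries (0.41 ± 0.17, adjusted p = 0.225). Exosc5 stood at 34.5, 31.1 and 27.9 CPM in the younger and 41.9, 33.0, 46.3 and 49.6 CPM in the older libraries (0.45 ± 0.21, adjusted p = 0.288). Ncl stood at 359, 303 and 359.9 CPM in the younger and 422, 354, 433 and 399 CPM in the older libraries (0.24 ± 0.12, adjusted p = 0.332).

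The last 3 overlapped between the ages. Only 4 members did not overlap, Mybbp1a, Mrto4, Nip7 and Grwd1, beside 16.8% of all genes. Grwd1, a histone-binding factor of ribosome assembly, had the widest difference, 1.44 ± 0.74, on levels of 1.45, 1.35 and 1.61 CPM in the younger and 4.72, 4.37, 3.07 and 3.92 CPM in the older libraries; it is named here for its size and was not called. For Mrto4 there are 2 named pseudogenes. Of 116 other ribosome biogenesis genes 1 was called, Naf1, an assembly factor of box H/ACA particles (0.82 ± 0.21, adjusted p = 0.0423), and of 45 other MYC targets 0. Myc levels were 10.1, 2.71 and 6.91 CPM in younger and 10.3, 13.3, 3.43 and 1.54 CPM in older microglia (0.10 ± 0.65), all Mycn counts were 0, and of the 12 network genes tested Mlxipl alone was called (-0.57 ± 0.12, adjusted p = 0.0187).

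Omomyc was given to cultured astrocytes to block MYC, and no member was called under it. Whether it blocked MYC in these cells was not tested here, so the absence of calls does not show what depends on MYC. In edgeR with 1 mean per group, 3 of 16119 genes were called (0.0186%), none of them a member; 0 members had an unadjusted p under 0.05, and DESeq2 and limma-voom also called 0 members. The libraries with the same replicate number varied together, and with the replicate number as a block 656 genes were called (4.07%, with 2.23% higher and 1.84% lower). Of the members 0 were called with the block as well, 5 had an unadjusted p under 0.05, and the smallest adjusted p was 0.160.

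The members' median log2 fold change was -0.05 with and without the block, against -0.00 over all genes. All were small: with the block they ran from -0.25 to 0.20, with a median SE of 0.07. Within the 3 pairs of libraries the members' median was 0.04, -0.11 and -0.03, and 12, 32 and 25 of the 45 were lower under Omomyc. Over all 16119 genes the medians were 0.002, -0.006 and 0.010, and 7972, 8163 and 7625 were lower. Across the pairs 6 members (13.3%) were lower in all 3 and 6 (13.3%) higher in all 3, where 21.2% and 23.2% of all genes were. Pair 2 carried the largest values of either sign, from -0.60 for Nme1 to 0.44 for Utp20.

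Nhp2 stood at 19.9, 24.7 and 21.6 CPM with vehicle and 18.8, 18.2 and 19.5 CPM with Omomyc, without overlap (-0.23 ± 0.10, adjusted p = 0.779; with the block -0.22 ± 0.09, 0.206). Dkc1, its partner in the box H/ACA particle, differed in the other direction, 24.3, 22.9 and 24.1 CPM with vehicle and 25.6, 29.4 and 26.0 CPM with Omomyc (0.19 ± 0.09, adjusted p = 0.779; with the block 0.18 ± 0.08, 0.245). Polr1a stood at 37.5, 33.4 and 40.4 CPM with vehicle and 43.2, 40.3 and 43.0 CPM with Omomyc (0.19 ± 0.09, adjusted p = 0.786; with the block 0.19 ± 0.07, 0.160). Its groups overlapped by the narrowest of margins, the highest vehicle library being just above the lowest Omomyc one. Aimp2 stood at 18.2, 22.7 and 19.3 CPM with vehicle and 17.8, 17.1 and 18.1 CPM with Omomyc (-0.19 ± 0.11, adjusted p = 0.820). Of the 45, Nhp2, Dkc1 and Aimp2 did not overlap, 3 members beside 12.8% of all genes.

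For 3 abundant members the arms overlapped. Ncl was at 368 ± 24.4 CPM with vehicle and 372 ± 8.89 CPM with Omomyc (0.02 ± 0.08), and Npm1 at 259.9 ± 20.2 and 262 ± 14.6 CPM with Omomyc (0.01 ± 0.09). Odc1, long used as a marker of MYC activity, was at 357 ± 28.7 and 337 ± 29.1 CPM with Omomyc (-0.08 ± 0.10; SD, n = 3 for each). Nme1, a nucleoside diphosphate kinase whose E-box stretches are printed above, had the most negative change (-0.27 ± 0.15), on vehicle levels of 32.2, 49.2 and 36.1 CPM and Omomyc levels of 31.7, 32.4 and 33.5 CPM; vehicle replicate 2 was the high library.

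No member was called under Omomyc, with or without an E-box in its promoter. The median log2 fold change under Omomyc was -0.04 over the 10 members with CACGTG, -0.06 over the 29 without it and -0.02 over the 6 with no matched promoter. Of the printed holders, Utp20 (0.19 ± 0.12) and Mybbp1a (0.06 ± 0.07) had positive values, and Pes1 (-0.09 ± 0.08), Grwd1 (-0.10 ± 0.11) and Exosc5 (-0.09 ± 0.11) negative ones.

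**Figure D5:**
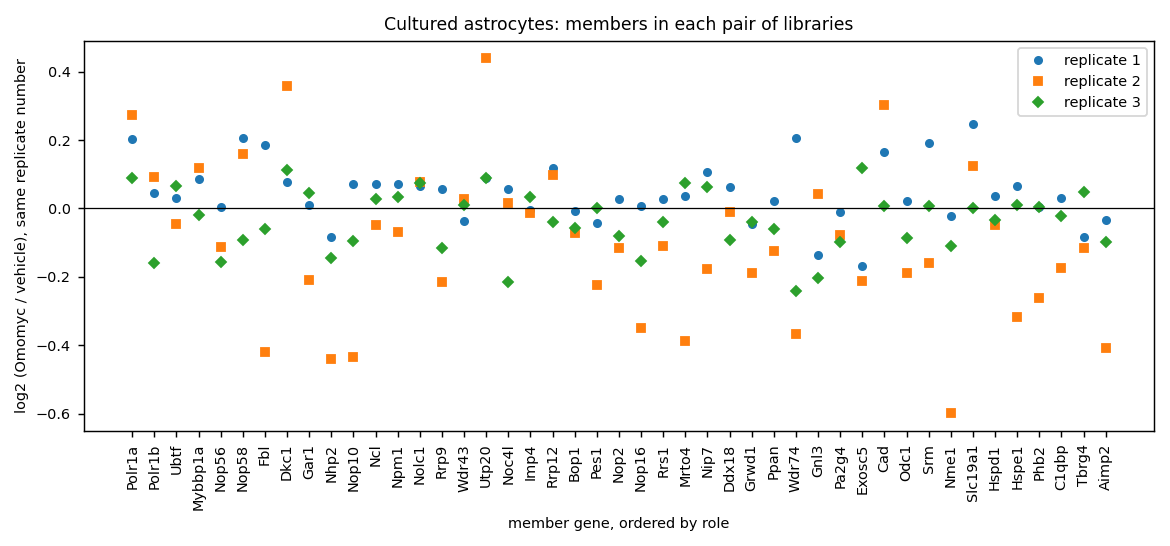
Log2 ratio of Omomyc over vehicle (y axis) in each of the 3 pairs of culture libraries with the same replicate number (colours and shapes) for the 45 members (x axis, ordered by role). Points scatter on both sides of 0, within about 0.25 for replicates 1 and 3, and replicate 2 spreads most, to -0.60 for Nme1.

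The other lists gave the same counts: 0 of 121 other ribosome biogenesis genes and 0 of 46 other MYC targets were called with or without the block. Of the MYC network, Myc stood at 32.8, 31.4 and 32.5 CPM with vehicle and 31.4, 33.7 and 36.5 CPM with Omomyc (0.07 ± 0.08; with the block 0.07 ± 0.07). Mycn, at 2.33, 2.04 and 2.51 CPM with vehicle and 1.54, 1.12 and 1.32 CPM with Omomyc, was the one network gene called with the block (-0.79 ± 0.17, adjusted p = 0.0439), and without it its adjusted p was 0.571. Other cell types were present in these cultures: 12 microglia markers summed to 1810 to 3272 CPM with vehicle and 2081 to 4076 with Omomyc, with 5 of the 12 called higher with the block, and 7 mural cell markers to 5039 to 6453 and 4328 to 4944. The 11 cell division genes summed to 436 to 467 CPM with vehicle and 462 to 649 with Omomyc, 1 of them called higher with the block. Their part in the members' values was not tested.

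Over the 5 age comparisons 16 of the 44 members tested in all of them (36.4%) were called at least once, beside 47.3% of the 10265 genes tested in all. Over all 8 comparisons the shares were 68.2% of the members and 84.9% of the genes. Of the 45, these 14 were called in none: Polr1b, Nop58, Dkc1, Nop10, Noc4l, Nop2, Nop16, Mrto4, Wdr74, Gnl3, Exosc5, Nme1, Hspe1 and Phb2. The exons of 18 members overlap another gene, 17 of them on the opposite strand and Nme1 on the same strand, and no source used here says whether the counting used strand. For those members, reads of the neighbouring gene could be included. The ones called in at least 1 comparison were Polr1a, Mybbp1a, Bop1, Imp4, Rrp9, Wdr43, Pes1, Grwd1, Nhp2, Nop56, Hspd1 and Aimp2.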

How the data were processed

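RNA was measured in 32 libraries: sorted astrocytes and O4 cells with a poly(A) kit with molecular identifiers, microglia with a 3′ kit and cultures with an mRNA kit, per the labels' protocols. The authors deposited raw counts per gene and, for the sorted astrocytes and O4 cells, TPM, a length-corrected share of transcripts. The submitters' processing notes name DESeq2, featureCounts 2.0.1, STAR 2.7.7a, fastp and UMI-tools 1.0.1, with no order. They list mm10, GRCm38.p6 and GRCm39 as builds without saying which table used which.

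Counts were analysed table by table with edgeR 4.0.16 in R 4.3.3: filterByExpr with a minimum count of 10, TMM scaling, 1 mean per group and the robust quasi-likelihood test, with Benjamini-Hochberg adjustment over all genes and a threshold of 0.05. Astrocyte and O4 counts at 3 and 6 months were also fitted together. Deposited normalized tables of microglia and cultures were not used. TPM were used for levels between genes and, for Ncl and Npm1 in O4 cells, also between ages, without a test. Gene positions are those of GENCODE for GRCm38. Values in every library are given for members called between ages, at most 8 each way, and for the 4 smallest p where fewer than 4 were called. Between the sorts, at most 8 each way are given by their lowest, median and highest level. For the difference of the age changes, astrocyte values are given for Srm and Rrs1 only. The MYC network genes are named where called, and up to 2 genes each way of the other lists. The members and lists were chosen with earlier results of these data known. The scripts were tested on simulated data. Same-numbered culture libraries varied together (correlations of their deviations 0.628, 0.432 and 0.682), and the block by replicate number is given for them. Alternatives were other scalings and filters, DESeq2 1.42.0, limma-voom (limma 3.58.1), the replicate block and each library left out; scaling by library totals and the removal of genes over 1% of any library were added after seeing the data.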

Additional observations from a re-analysis of the deposited data

Results flagged for a closer look

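The change from 3 to 6 months differed between sorted astrocytes and O4 cells, by the test of the difference itself, for Srm (0.91), Rrs1 (0.84), Aimp2 (0.58) and C1qbp (0.45), more positive in astrocytes, and for Ncl (-0.89) and Npm1 (-0.59), more negative there, all in log2 units.

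Single libraries stood far from the rest of their group for 7 values of members, in CPM. Among 6-month astrocytes, Cad was 51.0 in replicate 3, against 42.8 in the nearest other library, and Fbl was 11.2 in replicate 5, against 14.6. Among O4 cells at 3 months, Hspd1 was 73.3 in replicate 4 (nearest 84.8), Odc1 was 22.9 in the same library (nearest 17.8), and Nop56 was 36.8 in replicate 2 (nearest 31.3). Among microglia at 10 months, Hspd1 was 40.6 in replicate 4 (nearest 23.9) and Nhp2 was 1.09 in replicate 2 (nearest 7.17). These are 7 of 135 groups of 4 or 5 libraries examined over 27 members, and chance alone flags about 1 group in 20.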

How the results depend on the processing

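Over the alternatives run, no named value changed sign with a call. By library totals alone, added after seeing the data, the count of called members became 13 (13 higher, 0 lower) for astrocytes at 10 over 3 months and 11 (9 and 2) for the difference of the age changes, and between the sorts it split 19 and 8. Without a filter on low counts 1 member, Hspd1, was called between 6 and 10 months, and DESeq2 called 1, Mrto4, in microglia; the causes were not tested. With each library left out in turn, 23 to 29 members were called between the sorts and 6 to 9 in O4 cells. The counts were 4 to 8 for the difference of the age changes and 1 to 8 in astrocytes at 6 months. They were 0 in microglia, under Omomyc and, with both 10-month libraries kept, between 6 and 10 months. With 1 library left at 10 months, that library is assumed to vary like the other groups, so counts from those fits are left out. With the replicate number as a block, higher and lower calls were 4 and 1 in astrocytes at 6 months, 4 and 0 at 10 months, 3 and 3 in O4 cells, 5 and 18 between the sorts and 6 and 2 for the difference of the age changes; outside the cultures the numbers did not pair the libraries (correlations from -0.175 to 0.176). With 6-month libraries alone the sorts differed in 18 members (6 and 12), and with 3-month libraries alone in 24 (4 and 20). The counts for single ages, the replicate block and the libraries left out are given without the shares of all genes. They show how the calls moved with the setting and are not a result about the members. Microglia had the fewest counts, Gar1 fell under the filter there, and the SE of a member's log2 fold change reached 1.06.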
